A study of Mus musculus with 9 samples.

Results

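Messenger RNA was compared between NIH 3T3 cells carrying shCNKSR2_2, the second of a pair of lentiviral short hairpin RNAs directed at Cnksr2, and the same cells carrying shControl, a hairpin against red fluorescent protein, for which these cells have no gene. NIH 3T3 is an immortalised line of mouse embryonic fibroblasts, grown here as a monolayer on plastic. The comparison took 6 of the 9 libraries of the series, 3 independent cultures a hairpin (n = 3 throughout), and all 10340 genes of the deposited table. The other 3 libraries, also independent cultures, carried shCNKSR2_1, the first hairpin against Cnksr2, and they share the shControl libraries as their reference. All 9 cultures were infected with a lentivirus and selected for it. The labels do not say whether each culture was infected separately, and p-values measure the spread between these cultures of 1 line.

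Cnksr2 encodes a scaffold protein that, from work in other cells, holds components of the Ras pathway together at membranes. Ras passes signals from growth factor receptors through the kinases Raf, MEK and ERK to transcription factors, which switch on immediate early genes and, with them, phosphatases that turn ERK off again. Fibroblasts also make chemokines under the control of NF-kB and C/EBP transcription factors, and they build and crosslink the collagen matrix. Cnksr2 itself was not analysed here, so how far the hairpin lowered it is unknown, and the results compare hairpins and not levels of Cnksr2.

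Values are FPKM, fragments scaled by transcript length and library total, so levels of different genes can be set side by side but the depth of the libraries is unknown. Each gene of the table lay above 1 FPKM in all 9 libraries, and a gene switched on or off across that level was therefore not measured. Column sums of the 6 libraries lay between 437208 and 445202 FPKM. The median coefficient of variation over 3 cultures was 3.38% with shCNKSR2_2 and 3.71% with shControl. On the first principal component of the 9 libraries, which held 67.5% of the variance, the shCNKSR2_2 libraries lay between 13.4 and 13.8 and the shControl libraries between -16.9 and -16.1. Of 12 fibroblast markers 11 were in the table, 3 of them higher and 7 lower, and they summed to between 7144 and 7715 FPKM with shCNKSR2_2 and between 7026 and 7301 FPKM with shControl. Of the 3 that rose Vim, the intermediate filament of fibroblasts, averaged 1733 ± 45.4 FPKM with shCNKSR2_2 and 1209 ± 26.03 FPKM with shControl. The 7 that fell held Col1a1, Col1a2, Col3a1, Pdgfra, Pdgfrb and Lox, described below. Markers of epithelial, endothelial and muscle cells were all outside the table (0 of 10, 0 of 8 and 0 of 7). Of 12 macrophage and leukocyte markers it held Cd68 and Cd14, which summed to between 7.96 and 8.30 FPKM with shCNKSR2_2 and between 7.47 and 8.52 FPKM with shControl. In such bulk RNA, fewer cells of a kind and less RNA per cell cannot be told apart.

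With shCNKSR2_2, 4984 of 10340 genes (48.2%) passed an adjusted p under 0.05 in limma, 2066 (20%) higher and 2918 (28.2%) lower. Most of these changes were small, with a median size of 0.23 on the log2 scale beside a median SE of 0.05. At least 1.5-fold changes were called for 458 genes (4.43%), 185 higher and 273 lower, at least 2-fold ones for 37 higher and 83 lower, and at least 4-fold ones for 2 higher and 18 lower. The shCNKSR2_2 libraries all lay above all shControl libraries for 2569 genes (24.8%) and all below them for 3593 (34.7%). Log2 fold changes are of FPKM + 1, shCNKSR2_2 minus shControl, and they understate the ratio for genes of a few FPKM. Where a gene is said to rise or fall by a number or to lie at one, that number is on this scale, and ± after a fold change is its SE and after a mean its SD. For each gene named below as risen or fallen, the 3 libraries of one group lay wholly above or below those of the other. Lower genes no longer outnumbered higher ones after other scaling, since quantile normalization left 2533 genes higher and 2296 lower, rescaling by median ratios left 2460 and 2424, and removal of a trend with GC content left 2906 and 2631. The share called varied little with level, from 46% in the least abundant 25% of genes to 51% in the most abundant 25%, but 347 were higher and 842 lower among the least abundant, and 709 higher and 609 lower among the most abundant. Counts of gene lists below are to be read beside these shares and beside the median log2 fold change of all genes, -0.03.

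**Figure D1:**
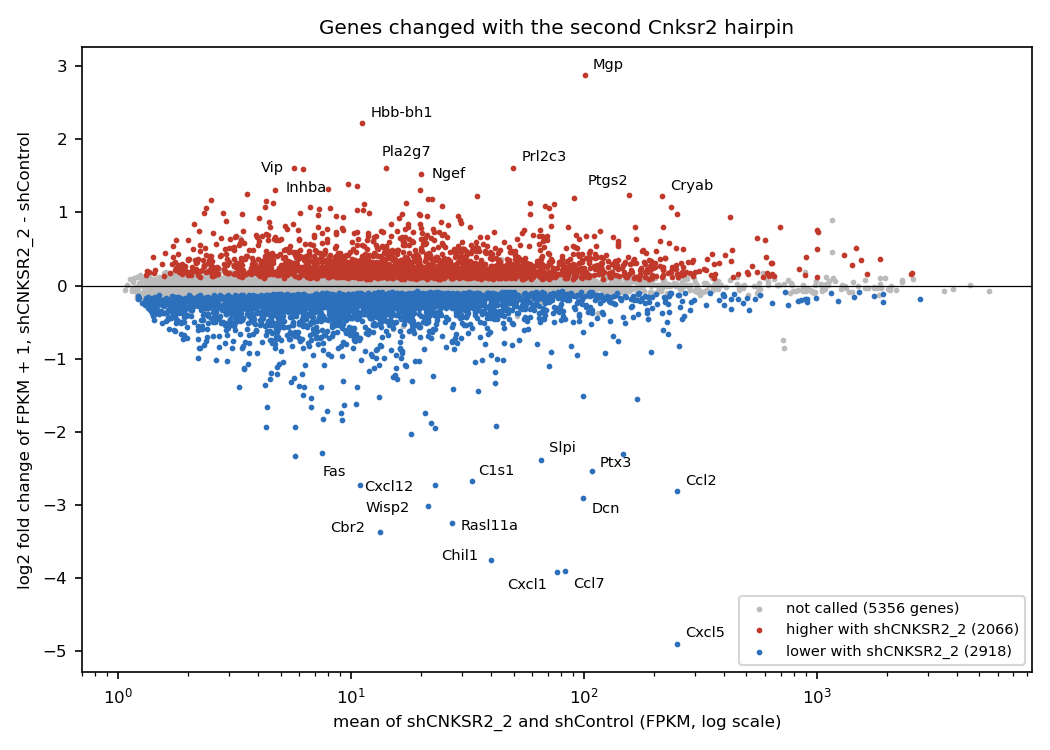
Log2 fold change of FPKM + 1 (shCNKSR2_2 minus shControl, y axis) of each of the 10340 genes against the mean FPKM of both groups (x axis, log scale), with called genes in red (2066 higher) and blue (2918 lower) and the others in grey. The points farthest from 0 are of lower genes, with Cxcl5 at -4.89, while Mgp is the highest at 2.87.

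Genes for secreted signals of inflammation held 5 of the 15 largest falls. Of 18 chemokine and cytokine genes 9 fell and 6 rose. Cxcl5, a chemokine that attracts neutrophils, had 15.6, 15.1 and 15.7 FPKM in shCNKSR2_2 cultures, against 502, 489 and 475 FPKM in shControl cultures. The groups lay far apart, and the log2 fold change of -4.89 ± 0.06 (SE, adjusted p = 2.14e-12) was the largest of the table. Cxcl1, which acts on the same receptor, had 8.11, 9.12 and 8.91 FPKM with shCNKSR2_2 and 148, 142 and 147 FPKM with shControl, a log2 fold change of -3.92 ± 0.05. The monocyte chemokine Ccl7 had 9.58, 9.01 and 9.94 FPKM, against 163, 156 and 152 FPKM with shControl (-3.91 ± 0.05). Ccl2, its neighbour on the chromosome and also a monocyte chemokine, kept more of its level, at 63.5, 62.1 and 60.1 FPKM with shCNKSR2_2 and 437, 452 and 429 FPKM with shControl (-2.81 ± 0.05). Cxcl12, which stromal cells use to hold blood progenitors, averaged 5.34 ± 0.220 FPKM with shCNKSR2_2 and 40.8 ± 0.601 FPKM with shControl. No library of either group overlapped the other for these 5 genes. Il18 and Lif, a cytokine of the interleukin 1 family and one of the interleukin 6 family, also fell, at -0.77 and -0.65. Of the 6 members that rose Clcf1, which signals through receptors of the interleukin 6 family, rose the most and averaged 81.1 ± 5.42 FPKM with shCNKSR2_2 and 36.5 ± 3.62 FPKM with shControl (1.13 ± 0.12). Next was Il34, a ligand of the receptor for macrophage colony-stimulating factor, which rose by 0.80. Il11, another cytokine of the interleukin 6 family, averaged 5.62 ± 0.282 FPKM with shCNKSR2_2 and 3.05 ± 0.268 FPKM with shControl.

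The genes of NF-kB, its inhibitors and its targets went the same way. Of 29 measured members 20 fell and 1 rose, with a median log2 fold change of -0.39. Ptx3, a long pentraxin that binds complement, fell the most of them and had 27.9, 32.9 and 32.8 FPKM with shCNKSR2_2, against 191, 173 and 191 FPKM with shControl (-2.54 ± 0.16, adjusted p = 5.99e-07). The nuclear IkB proteins followed, Bcl3 with 1.81, 1.80 and 1.75 FPKM, against 8.97, 9.08 and 10.98 FPKM with shControl, and Nfkbiz with 3.66 ± 0.154 FPKM, against 14.5 ± 0.235 FPKM. Zc3h12a, an RNase that degrades cytokine messages, fell by 1.67. Nfkbia, the cytoplasmic inhibitor that NF-kB itself induces, averaged 21.9 ± 0.586 FPKM with shCNKSR2_2 and 46.5 ± 2.35 FPKM with shControl, with no overlap. The member that rose was Ptgs2, the inducible cyclooxygenase, at 218, 220.0 and 224 FPKM with shCNKSR2_2 and 93.4, 97.9 and 87.8 FPKM with shControl (1.24 ± 0.10). Among 33 receptors of the Toll, TNF and interleukin families 14 fell and 6 rose. Fas, the death receptor, had 1.90, 2.32 and 2.23 FPKM in shCNKSR2_2 cultures and 20.3, 20.4 and 18.6 FPKM in shControl cultures, a log2 fold change of -2.72 ± 0.07. Osmr and Il6st, both chains of the oncostatin M receptor, fell, at -1.42 and -1.10, as did the Toll-like receptor gene Tlr2 at -1.14 and the interleukin 1 receptor gene Il1r1 at -1.03. Against this, Tnfrsf12a, the receptor for TWEAK, averaged 279 ± 10.1 FPKM with shCNKSR2_2 and 161 ± 7.49 FPKM with shControl. The decoy receptor genes Tnfrsf23 and Tnfrsf22, which lie side by side, rose by 0.73 and 0.59.

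Complement and acute phase genes were lower for 7 of 10 members and higher for 2, and their median log2 fold change of -1.16 was the farthest from 0 of the 60 lists. Ptx3 is also one of them. C1s1, a serine protease of the C1 complex, had 7.60, 8.82 and 8.35 FPKM with shCNKSR2_2, against 57.9, 59.95 and 56.8 FPKM with shControl (-2.68 ± 0.17, adjusted p = 6.20e-07). Its partner protease genes C1ra and C1rb averaged 6.53 ± 0.478 and 2.77 ± 0.220 FPKM with shCNKSR2_2, against 29.7 ± 0.245 and 12.4 ± 0.350 FPKM with shControl. C1s1 and C1ra are neighbours and C1rb lies close by, and since C1ra and C1rb are near copies, how fragments were shared between them is uncertain. C1s2, which lies next to C1rb and was not in the list, was at -2.29. How fragments were shared between C1s1 and C1s2 is uncertain as well. Cp, the copper-carrying ferroxidase ceruloplasmin, fell by 1.92 and Masp1, a protease of the lectin pathway, fell by 0.36. Both members that rose protect cells from complement, Cd55 by 0.31 and Cr1l by 0.22. Slpi, a secreted inhibitor of neutrophil elastase, had 20.3, 21.2 and 19.4 FPKM with shCNKSR2_2 and 109, 108 and 114 FPKM with shControl (-2.39 ± 0.07). Chil1, a chitinase-like protein made by inflamed tissue, had 4.37, 5.03 and 4.60 FPKM with shCNKSR2_2 and 73.3, 77.4 and 75.9 FPKM with shControl (-3.76 ± 0.14). Both genes kept their groups apart in all 6 libraries.

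Interferon-inducible genes were lower for 20 of 36 members and higher for 5, with a median of -0.21. Ifitm3, which blocks entry of viruses, had 85.7, 85.4 and 86.3 FPKM with shCNKSR2_2, against 252, 249 and 260.2 FPKM with shControl (-1.55 ± 0.08). Its paralog Ifitm2 fell by 0.83. The GTPase gene Gbp2 at -1.02, the DNA sensor gene Ifi204 at -0.86 and Ddx58, which encodes the RNA sensor RIG-I, at -0.61 were lower too. Ifi27l2a went against them, at 6.08 ± 0.755 FPKM with shCNKSR2_2 and 2.87 ± 0.357 FPKM with shControl, and Ifi30, a lysosomal thiol reductase, rose by 0.43.

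**Figure D2:**
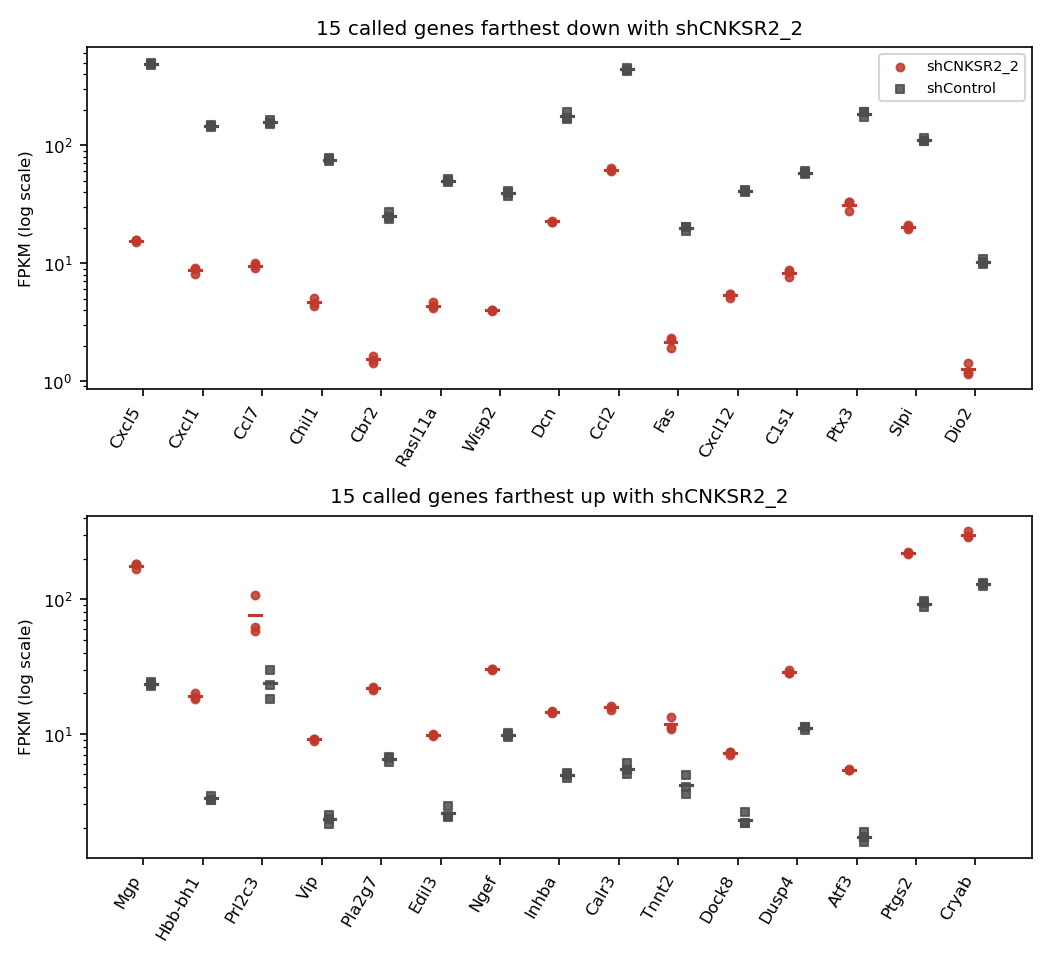
FPKM (y axis, log scale) in each library for the 15 called genes farthest down (top) and the 15 farthest up (bottom), with shCNKSR2_2 as red circles left of shControl as grey squares and a bar at each mean (n = 3 a group). The libraries of both groups are separate for each of the 30 genes, and Prl2c3 has the widest spread, with 107, 62.6 and 58.5 FPKM in shCNKSR2_2 cultures.

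Short stretches upstream of some genes named above or below are shown as examples of the motifs searched. They were picked and do not stand for all genes with a motif or for a direction of change. RefSeq promoter windows (GRCm38.p6, 250 bases before to 50 after a gene's start) were matched by symbol for 7891 of the 10340 genes, and 4 motifs were searched on both strands. The kB motif bound by NF-kB, read here as GGGA and TTCC with 2 bases between them, was in the windows of 1.71% of these 7891 genes, of 0 of 26 genes at least 2-fold higher and of 4 of 63 (6.35%) at least 2-fold lower. The C/EBP motif TTGCNNAA was in 9.23% of all, in 6 of 26 higher genes (23.1%) and in 14 of 63 lower ones (22.2%). The AP-1 motif TGANTCA was in 5.61% of all, in 7 of 26 higher genes (26.9%) and in 6 of 63 lower ones (9.52%). The antioxidant response element TGACNNNGC was in 17.2% of all, in 4 of 26 higher genes (15.4%) and in 11 of 63 lower ones (17.5%). Among genes at least 1.5-fold higher or lower, of which 138 and 189 had a window, the shares were nearer to those of all genes, or unchanged, for 3 of the motifs. The kB motif was in 0 higher and 4 lower genes (2.12%), the C/EBP motif in 11.6% of higher and 16.4% of lower genes and the AP-1 motif in 13.8% and 9.52%, while the antioxidant response element was in 23.2% and 16.4%. The motifs were chosen with the results known and the shares rest on few genes, so they are descriptions. In the lines below capitals mark only the motif named in the line. Each stretch reads 5′ to 3′ on the strand of its gene, from GRCm38.p6. Some stretches also hold another searched motif in small letters. These are an AP-1 motif in Ifitm3, a C/EBP motif in Plaur and an antioxidant response element in Nfkbia.
Cxcl1, kB motif, chr5:90891149-90891209, plus strand: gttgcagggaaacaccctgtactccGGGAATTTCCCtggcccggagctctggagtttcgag
Nfkbia, kB motif, chr12:55492648-55492701, minus strand: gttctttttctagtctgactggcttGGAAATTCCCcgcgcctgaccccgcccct
Ifitm3, kB motif, chr7:141010826-141010885, minus strand: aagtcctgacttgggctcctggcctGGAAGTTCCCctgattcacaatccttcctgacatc
C1s1, C/EBP motif, chr6:124542569-124542609, minus strand: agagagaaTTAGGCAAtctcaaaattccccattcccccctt
Slpi, C/EBP motif, chr2:164356716-164356757, minus strand: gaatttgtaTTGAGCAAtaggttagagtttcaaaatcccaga
Plaur, AP-1 motif, chr7:24462389-24462445, plus strand: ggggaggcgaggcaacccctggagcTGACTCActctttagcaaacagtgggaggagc
Prl2c3, AP-1 motif, chr13:12800257-12800313, minus strand: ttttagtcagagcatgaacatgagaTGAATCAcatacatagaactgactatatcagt
Gclm, antioxidant response element motif, chr3:122245398-122245456, plus strand: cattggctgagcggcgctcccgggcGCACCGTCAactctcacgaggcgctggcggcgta
In Cxcl1 and Nfkbia the kB motif lay 71 and 29 bases before the start, and in Ifitm3 116 bases before it. That of Cxcl1 was matched on both strands at overlapping positions. Cxcl5, Ccl2 and Ccl7 had no window in the table and were not searched.

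Matrix genes formed the second large group at the lower end. Of 13 interstitial collagen genes 7 fell and 1 rose, with a median of -0.27. Col1a1 and Col1a2 encode the chains of collagen I, the main fibre of connective tissue. Col1a1 had 86.03, 86.9 and 83.1 FPKM in shCNKSR2_2 cultures, against 157, 153 and 178 FPKM in shControl cultures (-0.92 ± 0.07, adjusted p = 4.05e-06), with no overlap. Col1a2 averaged 231 ± 6.28 FPKM with shCNKSR2_2 and 309 ± 19.98 FPKM with shControl, a smaller log2 fold change of -0.42 ± 0.07. Col3a1 fell by 0.83 and the collagen V gene Col5a1 fell by 0.50, while Col6a3, of the beaded collagen VI, rose by 0.24. Of 23 genes that process and crosslink collagen 14 fell and 4 rose. The lysyl oxidase gene Lox had 127, 140.2 and 139 FPKM with shCNKSR2_2 and 259.6, 252 and 251 FPKM with shControl (-0.90 ± 0.12), and its relative Loxl1 fell by 0.74. Pcolce, which speeds removal of the C-propeptide, fell by 0.76, and Adamts2, which removes the N-propeptide, fell by 0.75. The hydroxylase genes Plod3 and Lepre1 were among those that rose, by 0.31 and 0.19.

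Basement membrane genes were lower for 10 of 16 members and higher for 4. Col4a1 and Col4a2, neighbours that encode the common chains of collagen IV, rose, with Col4a1 at 33.2, 33.6 and 34.2 FPKM with shCNKSR2_2 and 17.8, 17.9 and 19.9 FPKM with shControl. Col4a2 averaged 28.6 ± 0.315 FPKM with shCNKSR2_2 and 16.3 ± 1.04 FPKM with shControl. Among those that fell were the laminin gene Lama4 at -0.57, the collagen-binding protein gene Sparc at -0.46 and Nid2, a linker of laminin and collagen IV, at -0.42. Among 46 proteoglycan, elastic fibre and matricellular genes 25 fell and 13 rose, with a median of -0.25, and the ends of the range were wide apart. Mgp and Spp1 rose the most of these 46 and are also counted in the chondrocyte and osteoblast list below. Wisp2, a CCN family protein that lacks the C-terminal domain of its relatives, had 3.90, 4.04 and 3.98 FPKM with shCNKSR2_2 and 39.1, 37.1 and 41.04 FPKM with shControl (-3.01 ± 0.12, adjusted p = 3.21e-08). Dcn, the collagen-binding proteoglycan decorin, had 22.5, 22.9 and 22.3 FPKM with shCNKSR2_2, against 169, 190.0 and 168 FPKM with shControl (-2.91 ± 0.12). Also lower were Ltbp2, a microfibril protein, at -1.23, Igfbp7, a binding protein of the vessel wall and stroma, at -1.18 and Has2, which makes hyaluronan, at -1.17. Ctgf, another CCN protein, averaged 84.9 ± 3.12 FPKM with shCNKSR2_2 and 54.7 ± 3.57 FPKM with shControl and so moved against Wisp2. Ltbp1, which anchors latent TGF-beta, rose by 0.53 and moved against Ltbp2.

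Of 36 matrix protease and inhibitor genes 19 fell and 7 rose. Sulf2, which trims sulphate from heparan chains, fell by 1.13, and the metalloprotease genes Mmp19 and Adamts7 lay at -0.86 and -0.85. Plaur, the urokinase receptor, had 114, 97.1 and 97.01 FPKM with shCNKSR2_2 and 43.4, 46.2 and 50.7 FPKM with shControl (1.12 ± 0.13), and its ligand gene Plau rose by 0.33. Adamts1 rose by 0.67. Chondrocyte and osteoblast genes rose for 7 of 9 members and fell for 1, with a median of 0.45. Mgp, a matrix protein that keeps soft tissue from calcifying, had 182, 185 and 169 FPKM with shCNKSR2_2, against 22.7, 23.5 and 24.3 FPKM with shControl, a log2 fold change of 2.87 ± 0.08 (adjusted p = 2.55e-09) with no overlap. Ank and Enpp1, which export and make the mineralisation inhibitor pyrophosphate or its precursor, averaged 95.5 ± 3.33 and 6.98 ± 0.251 FPKM with shCNKSR2_2, against 49.02 ± 1.12 and 3.68 ± 0.271 FPKM with shControl. Spp1, osteopontin, rose by 0.73 and the transcription factor gene Sox9 by 0.45, while Sox5 fell by 0.27.

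Transcriptional targets and feedback inhibitors of ERK rose for 23 of 33 members and fell for 2, with a median of 0.35. The phosphatase gene Dusp4 had 28.2, 28.2 and 29.7 FPKM in shCNKSR2_2 cultures and 10.7, 11.3 and 11.2 FPKM in shControl cultures (1.30 ± 0.13). Dusp5, a nuclear phosphatase of ERK, averaged 24.2 ± 2.59 FPKM with shCNKSR2_2 and 10.5 ± 1.06 FPKM with shControl. Hbegf, a ligand of the EGF receptor, rose by 1.11, and Hmga1, an architectural chromatin protein, by 0.98. Those that fell were Lif and Myc. Myc, a driver of growth genes, averaged 49.2 ± 3.26 FPKM with shCNKSR2_2 and 59.99 ± 1.06 FPKM with shControl. Of 27 immediate early genes 17 rose and 5 fell. Atf3, a stress-induced repressor, had 5.37, 5.40 and 5.50 FPKM with shCNKSR2_2 and 1.55, 1.87 and 1.71 FPKM with shControl (1.25 ± 0.06). Egr3 rose by 1.08, the orphan receptor gene Nr4a2 by 0.88 and Maff, a partner of NRF2, by 0.72. Zfp36l1, which speeds decay of AU-rich messages, fell by 0.95, and the AP-1 subunit genes Junb and Fosl2 lay at -0.76 and -0.51.

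Upstream of these targets, 43 genes of Ras GTPases, their regulators and the kinases below them went both ways, 13 higher and 7 lower, with 23 not called. Rasl11a, a small GTPase of the Ras family linked to ribosomal RNA transcription, stood apart from the other members at 4.33, 4.13 and 4.66 FPKM with shCNKSR2_2 and 48.7, 50.1 and 51.7 FPKM with shControl (-3.25 ± 0.17). Rras fell by 0.86 and Mapk3, which encodes ERK1, fell by 0.40. The atypical kinase gene Mapk6 averaged 67.6 ± 1.43 FPKM with shCNKSR2_2 and 40.7 ± 1.02 FPKM with shControl, and Rasa1, a GTPase-activating protein that turns Ras off, rose by 0.44. Growth factors and receptor tyrosine kinases were lower for 20 of 39 members and higher for 12. Among ligands, Fgf7 and Hgf, which stroma makes for epithelium, fell, at -0.95 and -0.70. Fgf7 had 60.5, 64.8 and 65.1 FPKM with shCNKSR2_2 and 125, 125 and 120.2 FPKM with shControl. Fgf2 and Bdnf rose, by 0.99 and 0.73. Both receptors for PDGF, the main growth factor of fibroblasts, fell, with Pdgfrb at 18.5 ± 0.346 and Pdgfra at 21.7 ± 0.603 FPKM with shCNKSR2_2, against 30.7 ± 1.37 and 35.03 ± 0.818 FPKM with shControl.

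In the IGF axis 7 of 15 genes fell and 3 rose, or 4 and 3 under quantile normalization. Igf2, a fetal growth factor, had 3.02, 3.01 and 3.10 FPKM with shCNKSR2_2 and 9.87, 9.06 and 9.77 FPKM with shControl (-1.38 ± 0.11), and Igf2r, which clears it, rose by 0.44. Of 41 genes of TGF-beta, BMP and activin signalling 17 fell and 7 rose. Inhba, the subunit of activin A, had 14.3, 14.4 and 14.8 FPKM with shCNKSR2_2 and 4.66, 4.93 and 5.12 FPKM with shControl (1.39 ± 0.08), and Tgif1, a corepressor of Smad proteins, rose by 0.55. The inhibitory Smad gene Smad6 and the coreceptor gene Tgfbr3 both fell, at -0.72 and -0.72. Wnt and Notch genes were split 7 higher to 8 lower of 27, or 9 to 8 under quantile normalization, with Fzd6 at 0.72 and Tcf7l1 at -0.79 as the ends. Guidance genes were lower for 12 of 32 members and higher for 8. Within the class 3 semaphorins, Sema3a rose by 1.06 while Sema3c had 2.56, 3.15 and 2.93 FPKM with shCNKSR2_2 and 9.80, 8.86 and 8.59 FPKM with shControl (-1.38 ± 0.08).

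**Figure D3:**
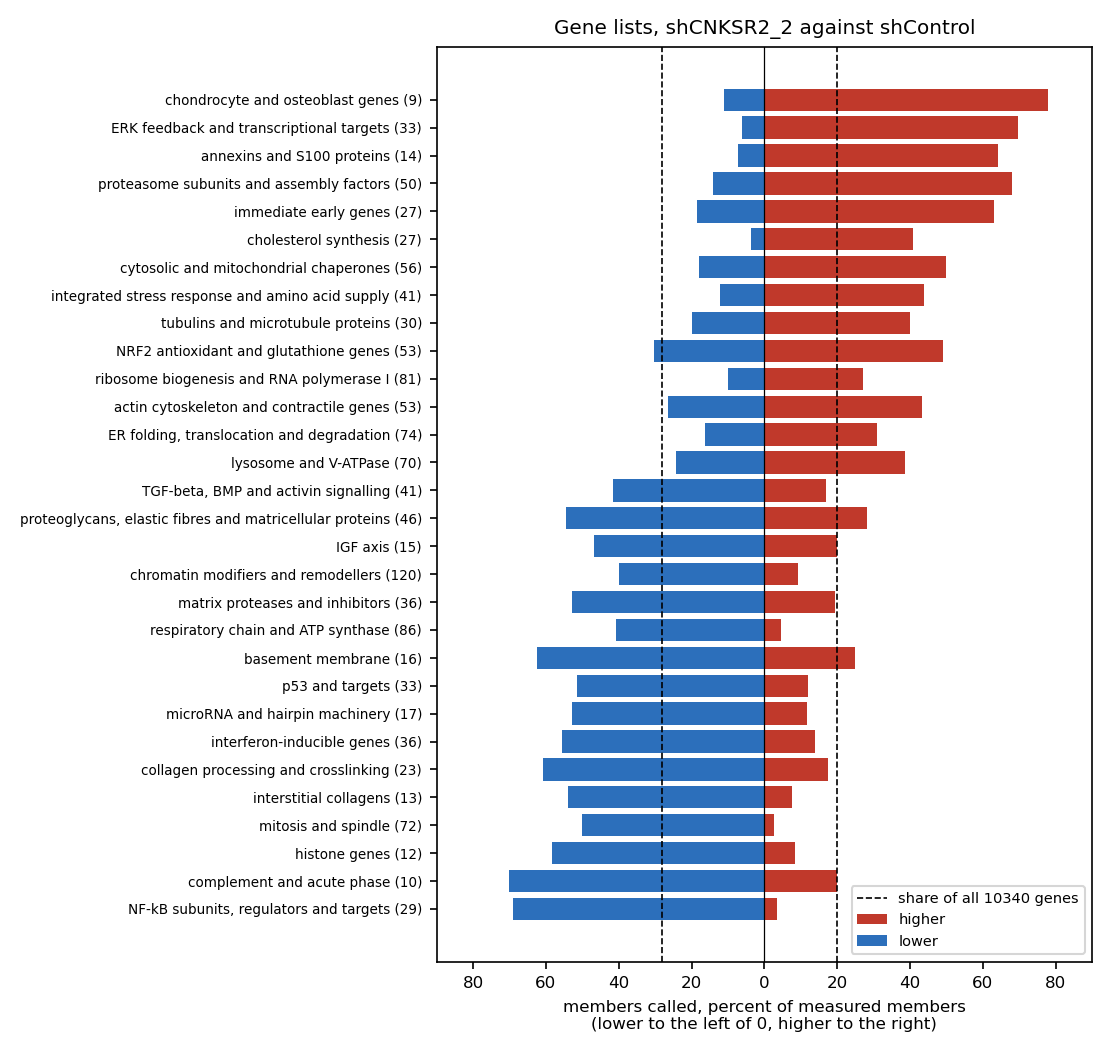
Share of measured members called higher (red, right of 0) and lower (blue, left of 0) with shCNKSR2_2 for 30 lists of at least 9 members. Lists were ranked by higher minus lower counts over members and taken from both ends, more of them from the lower end. Some lists left out between the ends are more one-sided than some drawn. The number of members is in brackets. Dashed lines mark the shares of all 10340 genes, 20% higher and 28.2% lower. NF-kB genes are at the bottom with 20 of 29 lower and chondrocyte and osteoblast genes at the top with 7 of 9 higher.

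Peptide hormones, lipid mediators and their receptors moved more than most genes, with 24 of 27 called, 11 higher and 13 lower. Vip, a neuropeptide that relaxes smooth muscle, had 8.91, 9.22 and 9.20 FPKM with shCNKSR2_2 and 2.32, 2.13 and 2.50 FPKM with shControl (1.61 ± 0.09). Nppb, a natriuretic peptide, rose by 0.98, and Ramp3, which turns the calcitonin-like receptor into one for adrenomedullin, by 0.67. The adrenomedullin gene Adm fell, to 5.41 ± 0.400 FPKM with shCNKSR2_2, against 15.8 ± 0.438 FPKM with shControl. Pla2g7, which inactivates platelet-activating factor, had 22.4, 21.1 and 21.8 FPKM with shCNKSR2_2 and 6.72, 6.58 and 6.15 FPKM with shControl (1.61 ± 0.06). Beside Ptgs2 above, the prostaglandin I2 synthase gene Ptgis fell by 1.10. Enpp2, autotaxin, which makes lysophosphatidic acid, had 1.22, 1.15 and 1.24 FPKM with shCNKSR2_2, close to the floor of the table, and 7.10, 7.97 and 7.19 FPKM with shControl. The sphingosine phosphate receptor gene S1pr3 fell by 0.87.

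Other genes at both ends of the table belong to smaller families. Edil3, a secreted integrin ligand, had 9.84, 9.90 and 9.71 FPKM with shCNKSR2_2 and 2.41, 2.90 and 2.45 FPKM with shControl (1.59 ± 0.09). Ngef, an exchange factor for RhoA best known from neurons, averaged 30.2 ± 0.248 FPKM with shCNKSR2_2 and 9.85 ± 0.327 FPKM with shControl, and Dock8, an exchange factor for Cdc42, averaged 7.16 ± 0.215 FPKM with shCNKSR2_2 and 2.30 ± 0.259 FPKM with shControl. Tnnt2, the cardiac troponin T gene, rose by 1.32 and the testis calreticulin gene Calr3 by 1.37. Hbb-bh1, an embryonic beta-like globin, had 18.2, 20.04 and 18.9 FPKM with shCNKSR2_2 and 3.24, 3.46 and 3.23 FPKM with shControl (2.22 ± 0.08). It was the 1 gene of 11 erythroid markers in the table, and of the 19 globin and haem genes 6 rose and 6 fell, or 8 and 4 after median-ratio rescaling. Prl2c3, a proliferin, had 107, 62.6 and 58.5 FPKM with shCNKSR2_2 and 18.2, 23.2 and 29.8 FPKM with shControl (1.61 ± 0.30, adjusted p = 0.00117). The other 4 measured proliferin genes did not pass the test, and as these genes are nearly identical, the assignment of fragments among them is uncertain. Prl2c2, the most abundant, averaged 1118 ± 30.6 FPKM with shCNKSR2_2 and 1114 ± 40.7 FPKM with shControl. At the lower end, Cbr2, a carbonyl reductase, had 1.51, 1.43 and 1.63 FPKM with shCNKSR2_2 and 23.6, 24.8 and 27.1 FPKM with shControl (-3.37 ± 0.10). Dio2, which activates thyroid hormone, had 1.15, 1.42 and 1.19 FPKM with shCNKSR2_2 and 10.8, 10.3 and 9.83 FPKM with shControl (-2.32 ± 0.16).

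Adipocyte genes went both ways, 4 higher and 6 lower of 13. The fatty acid carrier gene Fabp4 averaged 2.75 ± 0.293 FPKM with shCNKSR2_2 and 8.32 ± 0.769 FPKM with shControl, and the lipase inhibitor gene Angptl4 fell by 0.93, while Dlk1, which holds back adipocyte formation, rose by 0.38. Of 27 cholesterol synthesis genes 11 rose and 1 fell. Scap, the escort of SREBP, was the member that fell, at -0.22. Fatty acid synthesis genes were split 7 to 7 of 26, or 9 higher to 5 lower under median-ratio rescaling and 11 to 6 after removal of the GC trend, from Fasn at 0.37 to the acyl-CoA synthetase gene Acsl1 at -0.53.

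Genes that NRF2 or glutathione metabolism governs rose for 26 of 53 members and fell for 16, with a median of 0.12. The autophagy receptor gene Sqstm1 had 345, 311 and 309.7 FPKM with shCNKSR2_2 and 149, 153 and 154 FPKM with shControl (1.08 ± 0.07). Gsto1, a glutathione transferase, averaged 562 ± 19.8 FPKM with shCNKSR2_2 and 292 ± 6.26 FPKM with shControl, and the peroxidase gene Prdx1 1266 ± 22.98 FPKM with shCNKSR2_2 and 749.6 ± 19.2 FPKM with shControl. Gclm, the regulatory subunit of the first enzyme of glutathione synthesis, rose by 0.76. The members that fell most were Cbr2, the aldehyde dehydrogenase gene Aldh3a1 at -1.84, the microsomal transferase gene Mgst1 at -1.33 and the mitochondrial dismutase gene Sod2 at -0.62, and Sod2 is also a target of NF-kB.

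Proteasome genes rose together by small amounts, 34 of 50 higher and 7 lower, with a median of 0.225 and 0 members past 1.5-fold. All 6 ATPases of the 19S base rose, as did 14 of 15 subunits of the 20S core and 10 of 14 other 19S genes, grouped by symbol. Psma5 had 197, 213 and 207 FPKM with shCNKSR2_2 and 152, 144 and 149 FPKM with shControl (0.47 ± 0.05). Psmd11, a lid subunit, averaged 123 ± 2.32 FPKM with shCNKSR2_2 and 88.8 ± 1.35 FPKM with shControl. All 3 subunits of the PA28 activators fell, Psme1 and Psme2, which interferon induces, at -0.24 and -0.24, and so did 3 of 5 assembly chaperones. Psmd10, also an assembly factor, was counted by its symbol among the other 19S genes and fell by 0.45.

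Chaperone genes rose for 28 of 56 members and fell for 10, with a median of 0.12. Cryab, the small heat shock protein alpha B crystallin, had 321, 291 and 298 FPKM with shCNKSR2_2 and 125, 130.1 and 133 FPKM with shControl (1.22 ± 0.11). Hsph1, an exchange factor for Hsp70, averaged 92.4 ± 3.34 FPKM with shCNKSR2_2 and 52.3 ± 1.41 FPKM with shControl. The inducible Hsp70 genes Hspa1a and Hspa1b, near copies that lie side by side, rose by 0.67 and 0.69, and 7 of 8 subunits of the CCT chaperonin rose. Hspb6, another small heat shock protein, fell by 0.65, and Serpinh1, the collagen chaperone Hsp47, averaged 148 ± 3.34 FPKM with shCNKSR2_2 and 194 ± 9.13 FPKM with shControl. Of 41 genes of the integrated stress response and amino acid supply 18 rose and 5 fell. The cystine transporter gene Slc7a11 rose by 0.58 and Ppp1r15a, which ends the response, by 0.48, while Cebpb, a transcription factor it shares with inflammation, averaged 29.6 ± 2.04 FPKM with shCNKSR2_2 and 60.7 ± 3.97 FPKM with shControl. Aminoacyl-tRNA synthetase genes were higher for 10 of 40 members and lower for 5, with 9 of the 20 cytosolic enzymes higher and 0 of the 17 mitochondrial ones. The share of synthetase genes called was 37.5%, against 48.2% of all genes. In the endoplasmic reticulum list 23 of 74 rose and 12 fell, led by the cochaperone gene Dnajb9 at 0.54.

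Lysosome and V-ATPase genes were higher for 27 of 70 members and lower for 17. Atp6v1h, a V1 subunit, averaged 80.9 ± 3.69 FPKM with shCNKSR2_2 and 52.4 ± 1.26 FPKM with shControl, and 5 of 9 V1 subunits rose while 1 fell. Psap, the precursor of saposins, rose by 0.42. Of 7 cathepsins 3 rose and 4 fell, with Ctsk, the collagen-degrading cathepsin K, at -0.39 and close to the floor of 1 FPKM with shCNKSR2_2. Autophagy genes were lower for 11 of 38 members and higher for 6, a share called close to that of all genes, and the balance was 10 lower to 9 higher under median-ratio rescaling and 10 to 10 after removal of a trend with GC content. Beside Sqstm1, Gabarapl2, a protein of the autophagosome membrane, rose by 0.73, and Wipi1 and Bnip3 fell, at -0.77 and -0.69.

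**Figure D4:**
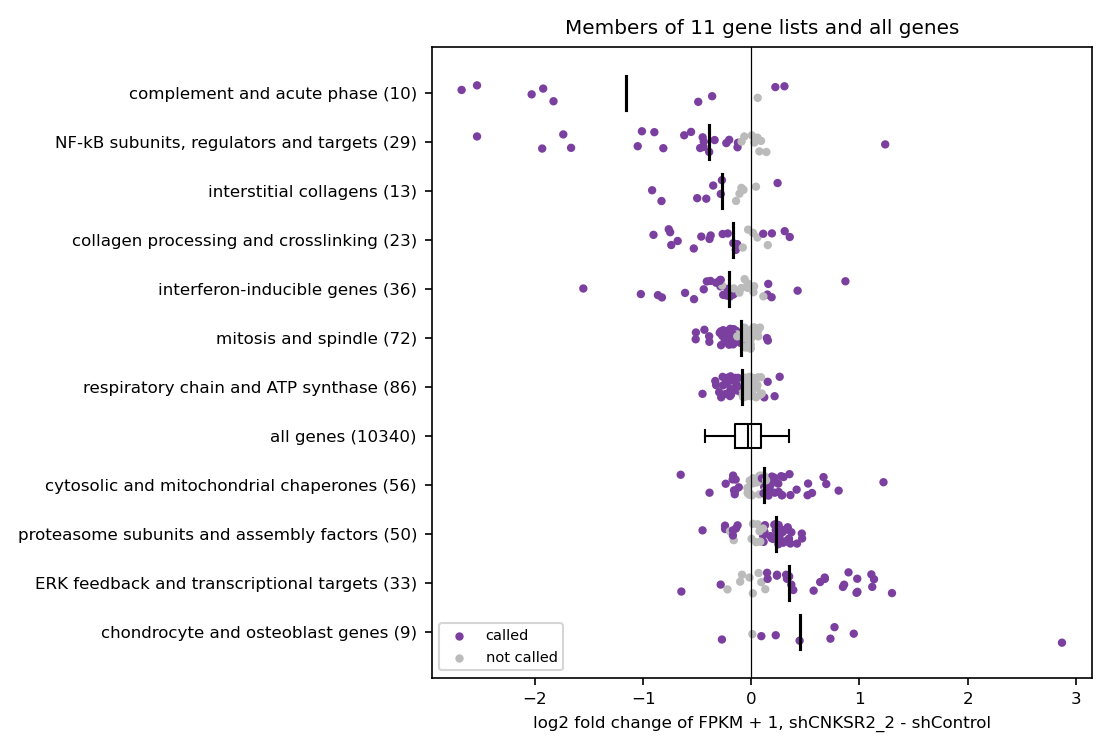
Log2 fold change of FPKM + 1 (shCNKSR2_2 minus shControl, x axis) of each measured member of 11 lists, called members in purple and others in grey, with a black bar at the median and the number of members in brackets. The box shows the quartiles and the 5th to 95th percentile of all 10340 genes, with its median at -0.03. Complement genes spread to below -2.5, while proteasome, mitosis and respiratory chain genes shift by small amounts with few exceptions.

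Genes of energy metabolism were lower more often than higher, as were all genes (28.2% lower and 20% higher). Of 86 respiratory chain and ATP synthase genes 35 fell and 4 rose, with a median of -0.08 and 0 members past 1.5-fold. The counts under quantile normalization and median-ratio rescaling were 37 and 27 lower and 3 and 7 higher. Complex I contributed 17 lower of 36 subunits, complex IV 6 of 11 and ATP synthase 7 of 17. Ndufv3, a subunit of complex I, had 58.8, 55.3 and 56.8 FPKM with shCNKSR2_2 and 77.9, 77.1 and 79.8 FPKM with shControl (-0.45 ± 0.05). Of 37 genes of glycolysis and pyruvate use 17 fell and 8 rose. Pdk1 and Pdk2, kinases that inhibit pyruvate dehydrogenase, fell, at -0.80 and -0.61, as did the enolase gene Eno3 at -0.71 and pyruvate carboxylase, Pcx, at -0.45. Aldoa, an abundant glycolytic enzyme, averaged 355 ± 24.4 FPKM with shCNKSR2_2 and 303 ± 16.3 FPKM with shControl. Hypoxia-inducible genes, which share Pdk1, Adm and Lox with lists above, were lower for 13 of 32 members and higher for 8, with Ndrg1 at 0.64 and the factor gene Hif1a at -0.37. Of 43 genes of the citric acid cycle and mitochondrial metabolism 10 rose and 16 fell, or 12 and 15 under median-ratio rescaling and 13 and 14 after removal of the GC trend. The coactivator gene Ppargc1a rose by 0.63. Solute carriers were split 44 higher to 45 lower of 160, or 58 to 34 under quantile normalization. The chloride cotransporter gene Slc12a2 averaged 24.01 ± 1.01 FPKM with shCNKSR2_2 and 49.5 ± 1.64 FPKM with shControl.

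Mitosis and spindle genes fell for 36 of 72 members and rose for 2, with a median of -0.10 and 0 members past 1.5-fold. Under median-ratio rescaling 27 fell and 3 rose, and under quantile normalization 34 and 2. Birc5, survivin, had 127, 122 and 122 FPKM with shCNKSR2_2 and 176, 179.7 and 175 FPKM with shControl (-0.51 ± 0.04). Top2a, the topoisomerase of dividing cells, averaged 139 ± 5.70 FPKM with shCNKSR2_2 and 187 ± 5.33 FPKM with shControl, and the kinetochore gene Nuf2 fell by 0.39. Cdk1, the kinase that starts mitosis, and Anln rose, by 0.15 and 0.14. DNA replication genes were lower for 18 of 61 members and higher for 7, and for 16 and 12 after removal of the GC trend, and their median of -0.02 lay at 0.01 under median-ratio rescaling. Of these genes 41% were called, against 48.2% of all genes, and the share lower was near the 28.2% of all genes. Tk1, thymidine kinase, fell by 0.37. Of 12 histone genes 7 fell and 1 rose, led by Hist1h2bc at -0.58, and the replacement histone genes H3f3a and H2afv lay at -0.36 and -0.36.

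In the control of the G1 phase 6 of 30 genes rose and 9 fell, a balance that turned to 8 and 6 under quantile normalization. Ccnd1, cyclin D1, had 119, 116 and 116 FPKM with shCNKSR2_2 and 73.7, 75.02 and 75.4 FPKM with shControl (0.64 ± 0.07), and its partner gene Cdk6 fell by 0.44. Among p53 and its targets 17 of 33 fell and 4 rose, with a median of -0.17. Fas led them, followed by Dcxr, a xylulose reductase, at 6.35 ± 0.867 FPKM with shCNKSR2_2 and 20.1 ± 1.94 FPKM with shControl, and by Trp53inp1 at -0.75. The members that rose held Mdm2, which degrades p53, at 0.35, and the cell cycle inhibitor gene Cdkn1a at 0.27, whose call was lost without shCNKSR2_2 replicate 1 (adjusted p = 0.0726) or shControl replicate 1 (adjusted p = 0.0674).

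In the translation machinery, 19 of 83 cytosolic ribosomal protein genes fell and 5 rose, and 17 of 77 mitochondrial ones fell and 6 rose. Fewer were called than of all genes (48.2%), with 28.9% of the cytosolic and 29.9% of the mitochondrial members. The counts each way depended on the scaling. Under quantile normalization 27 cytosolic genes fell and 2 rose, and under median-ratio rescaling 12 and 7. Of the mitochondrial ones 14 fell and 12 rose under median-ratio rescaling, and 15 each way after removal of the GC trend. Ribosome biogenesis genes rose for 22 of 81 members and fell for 8, with Nhp2, of the box H/ACA particles, at 0.28, and translation factors were split 14 higher to 10 lower of 61, or 26 to 9 after removal of the GC trend, with the initiation factor gene Eif5 at 0.38 and Eif4b at -0.34. Both lists were called less often than all genes, at 37% and 39.3%. Splicing factor and hnRNP genes, of which 34.1% were called, were lower for 18 of 88 members and higher for 12, a balance that median-ratio rescaling turned to 9 and 19. The 10 most abundant genes of shCNKSR2_2 cultures were Eef1a1, S100a4, Rplp1, Rpl41, Tpt1, Rps12, Lgals1, Rpl38, Rpl32 and Ppia, of elongation, calcium binding, the ribosome and protein folding. Of these Tpt1 and Rps12 rose by 0.18 and 0.16 and Rpl38 fell by 0.19, and the others did not pass the test. The call of Rps12 was lost under quantile normalization (adjusted p = 0.226) and that of Rpl38 after removal of a trend with GC content (adjusted p = 0.0537).

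Actin cytoskeleton and contractile genes were called more often than most, with 23 of 53 higher and 14 lower. Csrp2, a LIM protein of smooth muscle, rose by 0.68, Ankrd1 by 0.60 and the actin-binding genes Cap1 and Pfn2 by 0.44 and 0.43. Acta2, smooth muscle actin, had 48.6, 44.7 and 44.5 FPKM with shCNKSR2_2 and 75.3, 82.2 and 83.8 FPKM with shControl (-0.80 ± 0.05), and the tropomyosin gene Tpm1 averaged 174 ± 3.20 FPKM with shCNKSR2_2 and 265 ± 3.27 FPKM with shControl. Adhesion genes were higher for 15 of 33 members and lower for 12. Alcam had 14.7, 14.2 and 14.7 FPKM with shCNKSR2_2 and 6.57, 6.83 and 6.48 FPKM with shControl (1.03 ± 0.08), the tetraspanin gene Cd9 rose by 0.80 and the laminin receptor chain Itga6 by 0.72. Cd47, the signal that tells macrophages not to engulf a cell, averaged 8.31 ± 0.767 FPKM with shCNKSR2_2 and 17.4 ± 0.435 FPKM with shControl, and Pvrl2, a nectin, fell by 0.99. Annexins and S100 proteins rose for 9 of 14 members and fell for 1, led by Anxa7 at 0.67 and Anxa11 at 0.55. Of 30 tubulin and microtubule genes 12 rose and 6 fell, with Tubb3, the neuronal beta tubulin, at 4.56 ± 0.272 FPKM with shCNKSR2_2 and 2.32 ± 0.0692 FPKM with shControl. Tubb3 and Map2 were the 2 of 8 neuronal and glial markers in the table and both rose. Targets of YAP and TEAD were split 7 higher to 10 lower of 22, with Tead4 itself at 0.92 and the tissue factor gene F3 at -0.54.

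Among nuclear regulators, 48 of 120 chromatin genes fell and 11 rose, and 69 of 274 Zfp zinc finger genes fell and 19 rose. The share called was 49.2% of the chromatin genes and 32.1% of the Zfp genes, against 48.2% of all genes. A mean of at least 5 FPKM was reached by 99 of these chromatin genes and 134 of these Zfp genes. Under quantile normalization 32 Zfp genes fell and 31 rose, and 33 chromatin genes fell and 15 rose, and after removal of a trend with GC content 67 and 30 Zfp genes and 39 and 18 chromatin genes did. Hmga1 and Hmga2 went against the chromatin list, with Hmga2, of proliferating mesenchyme, at 345, 326 and 328 FPKM with shCNKSR2_2 and 165, 183 and 159.7 FPKM with shControl (0.97 ± 0.09). Smarcd3, a subunit of the BAF remodeller, fell by 0.49 and the heterochromatin protein gene Cbx1 fell by 0.41. Of 4 measured genes known in human as X-linked tumour suppressors that escape X inactivation, Atrx fell by 0.18, and Ddx3x, Kdm5c and Kdm6a did not pass the test, at 0.09, -0.01 and 0.05. Without shControl replicate 1, shControl replicate 2 or shCNKSR2_2 replicate 1, Atrx did not pass (adjusted p = 0.0841, 0.0714 and 0.0807), nor did it after median-ratio rescaling (adjusted p = 0.0538), which called Ddx3x higher instead. In the microRNA machinery, which also processes hairpins, 9 of 17 genes fell and 2 rose (6 and 4 under either rescaling). Mov10, a helicase of silencing complexes, fell by 0.67, and Ago3, an Argonaute protein that binds small RNAs, rose by 0.23. Clock genes were higher for 5 of 14 members and lower for 4, with the repressor genes Nr1d1 higher by 0.55 and Nfil3 at -0.89. Imprinted genes, among them Dcn and Igf2 above, were split 5 higher to 6 lower of 29, or 7 to 6 under quantile normalization, and Plagl1, a regulator of other imprinted genes, rose by 0.93.

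Set directly against shCNKSR2_1, the shCNKSR2_2 cultures differed in 2121 genes (20.5%), 944 (9.13%) higher and 1177 (11.4%) lower. Lower genes did not outnumber higher ones under quantile normalization, with 1075 higher and 1061 lower, nor after removal of the GC trend, with 1544 and 1356. Replicate 1 of shCNKSR2_1 stood apart from the other cultures of its group, at -1.71 on the first principal component where they lay at 4.63 and 5.98, and differences from that hairpin are given with it included. Leaving out replicate 1 of shCNKSR2_1 gave 1613 genes, 677 higher and 936 lower, and 5355 genes called against shControl. Of the shCNKSR2_2 libraries, leaving out replicate 2 gave 1231 genes that differed from shCNKSR2_1 and leaving out replicate 3 gave 1208. Matrix genes were mostly on the lower side. Of the 13 interstitial collagens 12 had less RNA with shCNKSR2_2 than with the first hairpin and 1 had more, in the proteoglycan list 27 of 46 were lower and 2 higher, and in collagen processing 14 of 23 were lower and 1 higher. Complement and acute phase genes were lower for 8 of 10 members. Col6a3, which rose against shControl, was lower than with shCNKSR2_1, at 58.6 ± 1.20 FPKM against 65.3 ± 3.55 FPKM.

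By the size of the difference, the genes farthest below shCNKSR2_1 that had also changed against shControl were Chil1, Igf2, Rasl11a, Wisp2, Ly6a, Dio2, Aldh3a1 and Retn. Chil1 averaged 4.67 ± 0.336 FPKM with shCNKSR2_2, 20.3 ± 6.06 FPKM with shCNKSR2_1 and 75.5 ± 2.10 FPKM with shControl, a difference between the hairpins of -1.88 ± 0.14 (SE, adjusted p = 3.61e-05). Ly6a, the surface protein Sca-1, averaged 8.96 ± 1.42 FPKM with shCNKSR2_2, 23.9 ± 7.59 FPKM with shCNKSR2_1 and 35.3 ± 1.46 FPKM with shControl. Wisp2 and Rasl11a likewise lay lowest with shCNKSR2_2 and between with shCNKSR2_1, at differences of -1.72 and -1.73. Retn, resistin, averaged 1.32 ± 0.118 FPKM with shCNKSR2_2, 4.25 ± 1.03 FPKM with shCNKSR2_1 and 3.18 ± 0.261 FPKM with shControl, so that shCNKSR2_2 alone lay below shControl. Farthest above shCNKSR2_1 were Hbb-bh1, Prl2c3, Upp1, Ngef, Nppb, Tnnt2, Map2 and Tmsb4x. Hbb-bh1 averaged 19.1 ± 0.907 FPKM with shCNKSR2_2, 4.97 ± 0.740 FPKM with shCNKSR2_1 and 3.31 ± 0.127 FPKM with shControl, a difference of 1.75 ± 0.08 (adjusted p = 1.84e-06). Tmsb4x, the actin-sequestering thymosin beta 4, had 844, 911 and 911 FPKM in shCNKSR2_2 cultures, 439, 612 and 528 FPKM in shCNKSR2_1 cultures and 529, 529 and 475 FPKM in shControl cultures, with those of shCNKSR2_2 above all 6 others. Map2, a microtubule protein of neurons, averaged 4.32 ± 0.243 FPKM with shCNKSR2_2, 2.12 ± 0.338 FPKM with shCNKSR2_1 and 2.44 ± 0.104 FPKM with shControl. All 5 measured proliferin genes were higher with shCNKSR2_2 than with shCNKSR2_1, of which Prl2c2 averaged 673 ± 122 FPKM with shCNKSR2_1, beside the levels with the other hairpins above.

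**Figure D5:**
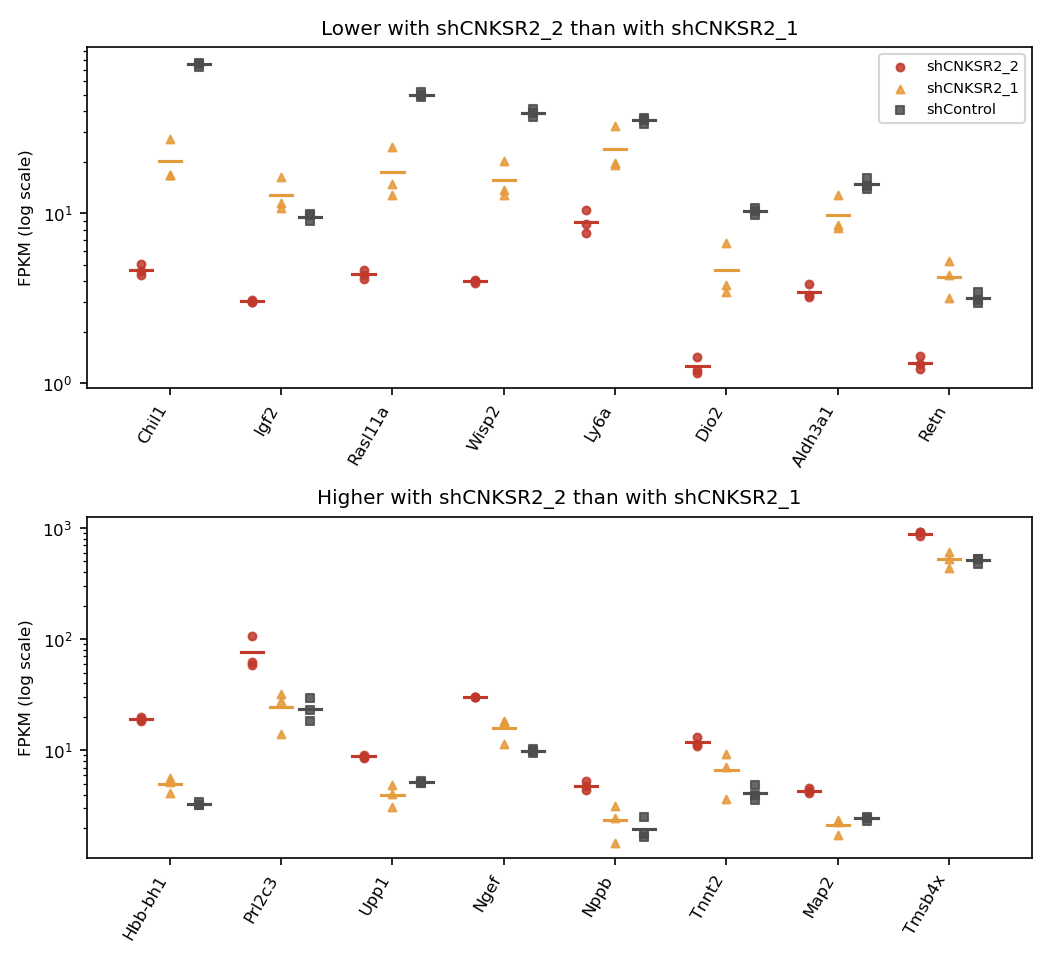
FPKM (y axis, log scale) in each library for the 8 genes farthest below (top) and the 8 farthest above (bottom) shCNKSR2_1 among genes called in both contrasts, with shCNKSR2_2 as red circles, shCNKSR2_1 as orange triangles and shControl as grey squares from left to right and a bar at each mean (n = 3 a group). Chil1, Rasl11a, Wisp2, Dio2 and Aldh3a1 lie lowest with shCNKSR2_2 and highest with shControl, while Igf2 and Retn lie below shControl with shCNKSR2_2 and not with shCNKSR2_1.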

How the data were processed

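Polyadenylated RNA of 9 NIH 3T3 cultures, extracted with Qiagen miRNeasy columns, was made into libraries with the TruSeq Stranded mRNA kit, per the labels' protocols. The submitters' processing notes name the mouse build mm9, STAR 25.1b and Cufflinks 2.2.1. The values are FPKM as deposited by the authors, in 1 table of 10340 genes with 0 value columns that belong to no sample, and they hold no counts, so the depth is unknown and no counting interval can be given. Why the table stops at 1 FPKM is not given in the sources used here. Groups and replicate numbers came from the labels.

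From these values, log2(FPKM + 1) was fitted with limma 3.58.1 (R 4.3.3, lmFit and eBayes with a variance trend) on all 9 libraries as 3 group means with 6 residual degrees of freedom, so that all groups share 1 estimate of spread. P-values were adjusted by Benjamini and Hochberg over the 10340 genes, and genes with an adjusted p under 0.05 were called. Log2 fold changes are given with their SE and group means with their SD. Gene lists are matched by symbol, 60 in all. The lists, the motifs and the comparison itself were chosen with earlier results of these data known, and 11 symbols that a name pattern had caught wrongly were taken out after values were seen, so no list is independent evidence of a direction and none was tested. Named genes are the 15 called farthest each way, up to 5 called members each way of a list, members of lists of at most 12 and of ligand and receptor families, the 8 farthest each way from shCNKSR2_1, the 10 most abundant and the cell type markers. Some genes and 1 list that these rules take in are not reported here. The fit was also run on simulated data with normal noise of the same spread in all groups, as the fit assumes. That run cannot show how unequal spreads or the scaling of FPKM affect the calls. Promoter windows come from RefSeq on GRCm38.p6, another build than that of the files, and were used by symbol alone. Alternatives covered the pseudocount, a minimum FPKM, the variance trend, median-ratio and quantile scaling, a trend with GC content, a replicate block, a fit on the groups compared alone and leaving out each library.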

Additional observations from a re-analysis of the deposited data

Results flagged for a closer look

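4 of the genes named were called against shControl in opposite directions by the hairpins, and the direct difference between the hairpins was called as well. Igf2 had 3.02, 3.01 and 3.10 FPKM with shCNKSR2_2, 16.4, 10.7 and 11.5 FPKM with shCNKSR2_1 and 9.87, 9.06 and 9.77 FPKM with shControl. Its difference of shCNKSR2_2 from shCNKSR2_1 was -1.76 ± 0.11 on the log2 scale (adjusted p = 1.50e-05). The shCNKSR2_2 libraries lay below and the shCNKSR2_1 libraries above all shControl libraries. Acta2, smooth muscle actin, had 48.6, 44.7 and 44.5 FPKM with shCNKSR2_2, 90.04, 90.7 and 92.8 FPKM with shCNKSR2_1 and 75.3, 82.2 and 83.8 FPKM with shControl, a difference between the hairpins of -0.98 ± 0.05 (adjusted p = 2.45e-06). Ctsk, cathepsin K, had 1.11, 1.16 and 1.04 FPKM with shCNKSR2_2, 2.15, 2.34 and 2.13 FPKM with shCNKSR2_1 and 1.71, 1.92 and 1.67 FPKM with shControl, a difference of -0.61 ± 0.05 (adjusted p = 1.12e-04). All these Ctsk values are low, and those with shCNKSR2_2 lay close to the floor of 1 FPKM. Upp1, uridine phosphorylase, went the other way, with 9.14, 8.50 and 8.78 FPKM with shCNKSR2_2, 3.09, 4.84 and 4.05 FPKM with shCNKSR2_1 and 5.10, 5.30 and 5.07 FPKM with shControl, a difference of 0.99 ± 0.10 (adjusted p = 1.74e-04). Replicate 1 of shCNKSR2_1 lay apart from the other libraries of its group across all genes, and its part in these differences was not tested beyond the values given.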

How the results depend on the processing

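The 3 libraries a group set the precision, and with no counts the share of it that depth decides is unknown. The number of genes called against shControl ran from 4075 to 5355 as single libraries were left out, with 1725 to 2234 higher and 2341 to 3121 lower, and from 458 to 474 at 1.5-fold or more. Against shCNKSR2_1 it ran from 1208 to 2333, with 500 to 1050 higher and 705 to 1283 lower. A minimum mean of 10 FPKM leaves fewer genes to test and gave 3027 called and 1571 lower against shControl, 245 at 1.5-fold or more, and 1301 called, 618 higher and 683 lower against shCNKSR2_1. Calling only changes of at least 1.5-fold gave 458 genes, and removal of a trend with GC content, fitted on the 9874 genes with a value (95.49%), gave 1544 genes higher and 1356 lower than with shCNKSR2_1, the cause of which was not tested. A replicate block gave 4827 genes against shControl, 2009 higher and 2818 lower, and 1944 against shCNKSR2_1, 836 higher and 1108 lower. Same-numbered libraries of shCNKSR2_2 and shControl had correlations of their deviations of -0.32, 0.19 and -0.21, shCNKSR2_2 replicate 1 correlated best with shControl replicate 3, and the numbers were not taken to pair the cultures. Of the 234 genes named, the block changed no call. Genes near 0 changed sign: under quantile normalization Eef1a1 lay at 0.00, Lgals1 at -0.015, Ppia at -0.016, Prl2c2 at -0.060, Rpl41 at 0.034 and Kdm5c at 0.033, and Kdm5c lay at 0.016 after median-ratio rescaling and at 0.032 after removal of the GC trend. Without single libraries S100a4 lay between -0.032 and 0.067, Prl2c2 between -0.026 and 0.021 and Kdm5c between -0.023 and 0.0024. No scaling moved the median of all genes by more than 0.1 on the log2 scale.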

Other observations

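A few genes of high FPKM varied more within groups than between them, and they were chosen after their values were seen. FPKM divides by transcript length, so a short RNA can have a high value from few fragments. Snord16a, a small nucleolar RNA, had 1186, 1975 and 1112 FPKM with shCNKSR2_2 and 1691, 327 and 721 FPKM with shControl, and at 0.90 its log2 fold change was the farthest from 0 of the genes not called (adjusted p = 0.127). Rps27 had 679, 1664 and 1557 FPKM with shCNKSR2_2 and 1165, 1526 and 377 FPKM with shControl. Its near copy Rps27rt had 1122, 262 and 327 FPKM with shCNKSR2_2 and 727, 447 and 1409.7 FPKM with shControl, and how fragments were shared between the copies is uncertain.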
